A study of Mus musculus with 10 samples.

Results

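The proteasome genes are the rows of the gene table named Psma to Psmg with a number, together with Pomp. There are 51 of them among 24421 listed genes. They were compared between 5 YUMMER1.7 melanomas grown in mice labelled Siah2 KO and 5 grown in mice labelled WT. YUMMER1.7 is a Braf-mutant mouse melanoma line made from YUMM1.7 by ultraviolet irradiation, which adds mutations that T cells can recognise. By the labels, 100000 cells were injected in both groups and the tumors were taken after 10 days. The study's methods give a larger number of YUMMER1.7 cells as the usual dose, so the sources differ. The cells were injected under the skin of C57BL/6 mice. Siah2, a RING ubiquitin ligase, was deleted in the whole animal in the KO mice, so the label concerns the host cells and not the injected line. The study describes its mice as young males, and the labels of these samples give neither age nor sex. The sources used here do not give the Siah2 genotype of the line. Poly(A) RNA of each whole tumor was sequenced, and the values are read counts that the authors normalized between libraries and rounded, called normalized counts here. They summed to between 15605574 and 16503134 in the KO-labelled tumors and between 15414758 and 15527530 in the WT tumors, a range set by the normalization and not by depth.

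The proteasome is a barrel-shaped protease that cuts ubiquitin-tagged proteins into peptides. Its 20S core is built of rings of alpha subunits (Psma genes), which gate entry, and rings of beta subunits (Psmb genes), some of which cut. A 19S cap of ATPases (Psmc genes) and non-ATPase subunits (Psmd genes) recognises, unfolds and feeds in the substrate, and PA28 (Psme1 and Psme2) is an alternative cap that opens the gate without ATP. When a cell senses interferon gamma, the catalytic subunits encoded by Psmb5, Psmb6 and Psmb7 are replaced in newly made cores by those of Psmb8, Psmb9 and Psmb10. The resulting immunoproteasome favours peptides that MHC class I molecules can hold, and many cells of the immune system carry it without induction.

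Of the 51 genes, 49 were above 0 in at least 1 tumor and were tested. Psma8, the testis-specific alpha subunit, and Psmb11, the catalytic subunit of the thymic cortex, were listed at 0 in every tumor. A 0 in this table is not read as absence of expression, since genes that all cells use are listed at 0 as well. The rule also took 2 genes whose products are not known as subunits. Psmc3ip encodes a recombination protein that binds an ATPase subunit, and Psme2b is an intronless copy of Psme2. The lowest mean in WT tumors among the 49 genes was 147.8, that of Psme2b.

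Several facts of the series touch every result. Siah2 itself had normalized counts of 573, 739, 747, 490 and 610 in the tumors labelled KO1 to KO5, against 391, 428, 407, 393 and 408 in the tumors labelled WT2 to WT6. Its transcript was therefore higher in tumors whose hosts are labelled as lacking it (log2 difference 0.62 ± 0.11 SE, adjusted p = 0.00104 in limma). A value for the whole gene does not show whether the deleted part was transcribed. Whole tumors also hold injected cells, which a deletion in the host does not reach. Reads of host and injected cells cannot be told apart here, so these values do not check the labels. For that reason the group is called KO-labelled throughout. The columns KO4 and KO5 carry numbers that do not match the sample titles one to one, so they were used as members of their group without a replicate number. Across all 12926 measured genes, limma called 35.6% at an adjusted p under 0.05, with 17.5% higher and 18.2% lower in KO-labelled tumors. In 24.8% of the genes the values of the groups did not overlap. The labels do not say which tumors shared a cage, litter or day, so p-values measure the spread between these tumors only.

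The 5 interferon-inducible genes Psmb8, Psmb9, Psmb10, Psme1 and Psme2 were all higher in KO-labelled tumors, by 1.68-fold to 2.10-fold, with no overlap between groups. The other 44 proteasome genes were higher by less, with a median of 1.23-fold. Of these, 28 (63.6%) passed as higher and 0 as lower, against 17.5% and 18.2% of all measured genes. In the plot of all 49 genes by role, the inducible genes have the 5 largest log2 differences. The SE bars of the lowest of them, Psme1 (0.75 ± 0.13), overlap those of Psme2b (0.64 ± 0.14).

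**Figure D1:**
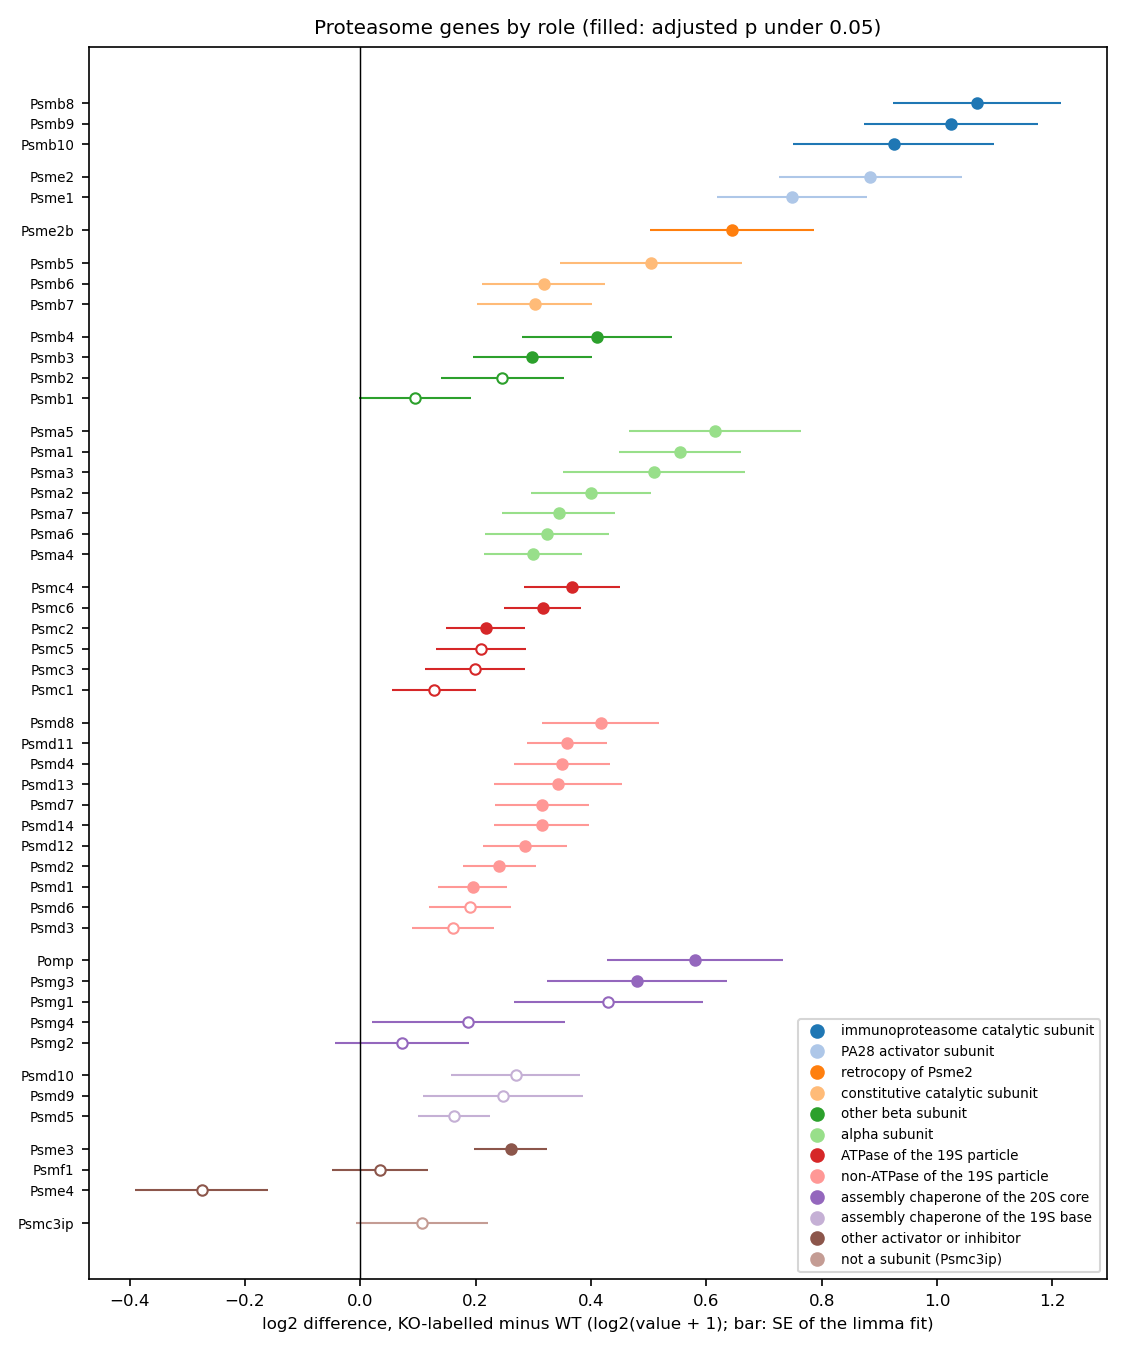
Log2 difference between KO-labelled and WT tumors (x axis, on the scale log2(normalized count + 1), 5 tumors each) of the 49 measured proteasome genes, grouped by role; bars are the SE of the limma fit and filled points passed an adjusted p under 0.05. The 5 inducible genes lie between 0.75 and 1.07, the other genes between -0.27 and 0.64, and Psme4 is alone below 0.

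Psmb8 encodes the inducible subunit with chymotrypsin-like activity of the immunoproteasome. The gene lies on chromosome 17 at 34197721 to 34201454 of GRCm38, on the plus strand, within the MHC region and next to the peptide transporter gene Tap1. Its normalized counts were 8336, 10075, 11112, 11502 and 6632 in tumors KO1 to KO5, against 4063, 4136, 3937, 5116 and 5175 in tumors WT2 to WT6. The lowest KO-labelled tumor, KO5, was above the highest WT tumor. The log2 difference was 1.07 ± 0.15 (SE, adjusted p = 0.000155), or 2.10-fold, the largest among the 49 genes and at the 97.7th percentile of all measured genes.

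Psmb9, the inducible caspase-like-site subunit, lies beside it at 34181987 to 34187764 of chromosome 17, on the minus strand. It had 3272, 4151, 4741, 4594 and 2609 normalized counts in KO-labelled tumors, against 1736, 1738, 1667, 2092 and 2104 in WT tumors. The groups did not overlap, and KO5 was again the lowest of the KO-labelled tumors. The log2 difference was 1.02 ± 0.15 (adjusted p = 0.000268), or 2.03-fold. Psmb9 and Tap1 are read in opposite directions from a shared promoter and their annotated ends overlap by 212 bases. Tap1, which pumps peptides into the endoplasmic reticulum, had 7698, 6830, 9947, 8754 and 6427 normalized counts in KO-labelled tumors, against 3770, 4108, 4065, 4344 and 5081 in WT tumors. Its log2 difference was 0.88 ± 0.12 (adjusted p = 0.000157), again with no overlap.

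Psmb10, the inducible trypsin-like-site subunit, lies away from the MHC on chromosome 8 (105935735 to 105938444, minus strand). It had 3035, 4187, 4659, 5205 and 2572 normalized counts in KO-labelled tumors, against 1643, 2066, 1918, 2092 and 2359 in WT tumors. KO5 exceeded the highest WT tumor, WT6, by the smallest relative margin of the catalytic set. The log2 difference was 0.92 ± 0.17 (adjusted p = 0.00136), or 1.90-fold. The annotation places antisense transcripts over Psmb8 and Psmb10, and since the sources used here do not give the strand setting of the counting, reads of a gene and its antisense partner cannot be told apart.

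The PA28 genes moved in the same direction. Psme1 (chromosome 14, 55578123 to 55581529, plus strand) and Psme2 (55587441 to 55591113, minus strand) lie close to each other and encode the alpha and beta subunits of the cap. Psme1 had 5378, 6849, 7319, 7562 and 4498 normalized counts in KO-labelled tumors, against 3522, 3638, 3467, 3774 and 4081 in WT tumors. Psme2 had 5237, 7558, 7773, 7906 and 4210 in KO-labelled tumors, against 3062, 3440, 3458, 3535 and 3709 in WT tumors. In both genes KO5 and then KO1 were the lowest KO-labelled tumors and still lay above every WT tumor. The log2 differences were 0.75 ± 0.13 for Psme1 (adjusted p = 0.000832) and 0.88 ± 0.16 for Psme2 (adjusted p = 0.00103).

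Psme2b, the copy of Psme2 on chromosome 11, was far less abundant, with 229, 264, 230, 269 and 171 normalized counts in KO-labelled tumors and 125, 167, 155, 126 and 166 in WT tumors. Every KO-labelled tumor was above every WT tumor, KO5 by the least (log2 difference 0.64 ± 0.14, adjusted p = 0.00377). Its value was 2.96% to 4.37% of that of Psme2 in KO-labelled tumors and 3.56% to 4.85% in WT tumors. Whether its reads came from Psme2 cannot be told from the table, and the annotation places it inside another gene on the same strand, so its value is uncertain.

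**Figure D2:**
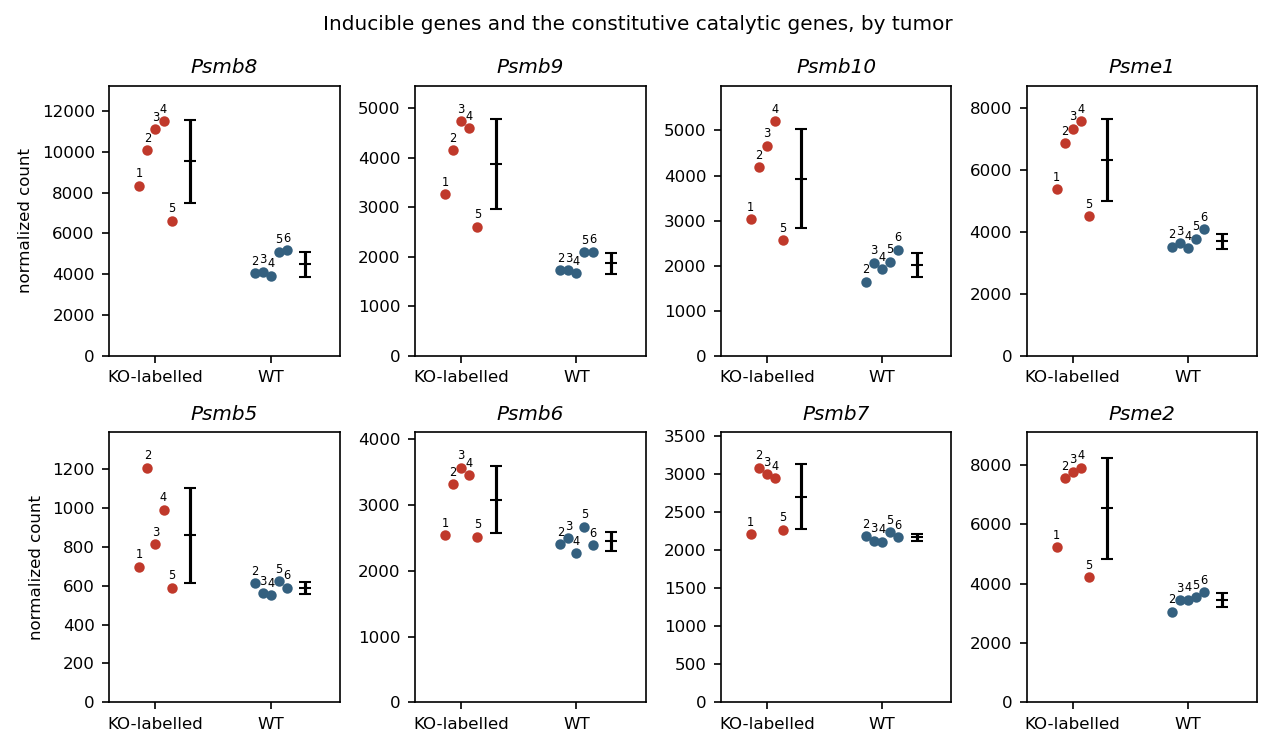
Normalized counts (y axis, from 0) of the inducible genes Psmb8, Psmb9, Psmb10, Psme1 and Psme2 and of the constitutive catalytic genes Psmb5, Psmb6 and Psmb7 in KO-labelled tumors (left) and WT tumors (right), 5 each; points are tumors with their column number, and the bar is the mean ± SD. The groups do not overlap in the 5 inducible genes and overlap in each of the 3 constitutive ones, where KO1 and KO5 lie near the WT tumors.

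Short sequence words that transcription factors of these pathways bind were looked for in the promoters. RefSeq windows reaching from 250 bases before to 50 bases after the RefSeq start of the gene (GRCm38.p6) were at hand for 42 of the 49 genes. They were searched on both strands for GAAANNGAAA, a word like the interferon-stimulated response element that IRF proteins bind, for TTCNNNGAA, the GAS element of the interferon gamma response, and for TGACNNNGC, the core of the antioxidant response element that NRF1 and NRF2 bind. The GAS word reads the same on both strands, and none of the matches in the windows printed here overlapped another of these words. The windows shown are those of Psmb8 and of its constitutive counterpart Psmb5, that of Psme1, which held the response element word alone among the inducible genes, and that of Psmb9, which reaches into Tap1. Each is given from 5′ to 3′ on the strand of its gene. The RefSeq start can differ from that of the gene spans given above. By those spans the windows of Psmb8, Psme1 and Psmb9 lie wholly inside the annotated gene, whose start is farther upstream. The words marked in Psmb8 and Psme1 are therefore not upstream of the annotated gene. Capitals mark the GAS word in Psmb8 (chr17:34197945-34198244, plus strand), the response element word in Psme1 (chr14:55578244-55578543, plus strand), the antioxidant word in Psmb5 (chr14:54617946-54618245, minus strand) and, in Psmb9 (chr17:34187281-34187580, minus strand), the 28 bases that lie within the annotated Tap1 gene.
Psmb8: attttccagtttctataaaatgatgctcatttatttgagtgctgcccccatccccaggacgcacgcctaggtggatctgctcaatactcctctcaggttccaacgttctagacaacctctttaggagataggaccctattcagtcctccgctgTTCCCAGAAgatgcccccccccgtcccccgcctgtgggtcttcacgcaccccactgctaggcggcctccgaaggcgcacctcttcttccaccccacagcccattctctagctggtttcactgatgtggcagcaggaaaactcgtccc
Psme1: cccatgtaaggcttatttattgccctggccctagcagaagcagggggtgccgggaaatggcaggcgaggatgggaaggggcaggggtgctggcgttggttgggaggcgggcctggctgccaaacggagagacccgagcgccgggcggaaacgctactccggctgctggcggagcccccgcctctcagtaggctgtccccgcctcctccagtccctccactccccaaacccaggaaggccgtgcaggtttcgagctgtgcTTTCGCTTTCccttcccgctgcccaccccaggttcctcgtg
Psmb9: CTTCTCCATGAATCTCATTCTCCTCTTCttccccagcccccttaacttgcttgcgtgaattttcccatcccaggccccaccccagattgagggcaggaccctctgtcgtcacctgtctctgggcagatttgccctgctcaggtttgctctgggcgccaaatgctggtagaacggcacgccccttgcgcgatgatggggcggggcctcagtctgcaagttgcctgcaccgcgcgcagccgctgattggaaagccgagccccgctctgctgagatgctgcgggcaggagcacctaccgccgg
Psmb5: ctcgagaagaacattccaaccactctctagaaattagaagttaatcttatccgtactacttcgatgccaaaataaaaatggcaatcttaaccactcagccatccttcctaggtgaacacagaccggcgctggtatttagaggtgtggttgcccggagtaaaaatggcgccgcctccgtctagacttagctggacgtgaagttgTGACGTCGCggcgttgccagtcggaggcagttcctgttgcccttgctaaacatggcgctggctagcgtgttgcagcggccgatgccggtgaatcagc

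The response element word was in 5 of the 42 windows (11.9%), against 3.99% of the windows of all 27025 genes. The genes were Psme1, Psmb3, Psmd4, Psmd9 and Psmg4, so 1 inducible gene and 4 of the other 37 (10.8%). The GAS word was in 3 windows (7.14%, against 9.55% of all genes), those of Psmb8, Psmd2 and Psmg1. The antioxidant word was in 6 windows (14.3%, against 14% of all genes), with 0 of the 5 inducible genes and 6 of the other 37 (16.2%), among them Psmb5 and Psmb6. A match is a description of the letters in these windows, and sites farther away were not searched.

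The constitutive catalytic genes changed less than the inducible ones and their groups overlapped. Psmb5, which encodes the subunit that Psmb8 replaces, had 697, 1206, 812, 991 and 589 normalized counts in KO-labelled tumors, against 613, 561, 550, 622 and 589 in WT tumors. KO2 had the highest value, and KO5 lay at the level of WT6. The log2 difference was 0.50 ± 0.16 (adjusted p = 0.025). Psmb6, replaced by Psmb9, had 2540, 3310, 3565, 3456 and 2517 in KO-labelled tumors, against 2403, 2494, 2272, 2668 and 2384 in WT tumors. Psmb7, replaced by Psmb10, had 2205, 3081, 3000, 2944 and 2266 in KO-labelled tumors, against 2186, 2124, 2110, 2238 and 2172 in WT tumors. In both, KO2, KO3 and KO4 were above all WT tumors, and the KO1 value fell among those of the WT tumors. The log2 differences were 0.32 ± 0.11 for Psmb6 (adjusted p = 0.0337) and 0.30 ± 0.10 for Psmb7 (adjusted p = 0.0313). These calls were near the threshold. Psmb6 lost its call in 9 of 20 alternatives and Psmb7 in 8, total-count scaling among them for both genes (adjusted p = 0.0574 for Psmb6 and 0.0565 for Psmb7), and leaving out KO4 brought the adjusted p of Psmb5 to 0.0579.

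Each inducible gene was next set against its constitutive counterpart within the same tumor, per kb of transcript, a ratio that does not depend on the scaling of the library. Psmb9 over Psmb6 averaged 0.733 in KO-labelled tumors (0.612 to 0.785) and 0.449 in WT tumors (0.411 to 0.521). All 5 KO-labelled tumors were above all WT tumors, and the ratio was 1.63-fold higher (log2 difference 0.71 ± 0.09, exact permutation p = 0.00794, 0.0119 adjusted over the 3 pairs). Psmb10 over Psmb7 averaged 1.26 in KO-labelled tumors (1.004 to 1.56) and 0.818 in WT tumors (0.665 to 0.961). It was again higher in 5 of 5 KO-labelled tumors, by 1.54-fold (log2 difference 0.62 ± 0.14, exact permutation p = 0.00794, adjusted 0.0119). Psmb8 over Psmb5 averaged 6.20 in KO-labelled tumors (4.61 to 7.55) and 4.19 in WT tumors (3.66 to 4.84). Here KO2, the tumor with the highest Psmb5, was at 4.61 and fell among the WT tumors, while the other 4 KO-labelled tumors were above them (1.48-fold, log2 difference 0.56 ± 0.14, exact permutation p = 0.0159, adjusted 0.0159). The tests were 2-sided over the 252 ways to split the tumors, of which 0.00794 is the smallest p. With both KO4 and KO5 left out, no ratio passed after adjustment, although the log2 differences were 0.55, 0.76 and 0.63 for Psmb8, Psmb9 and Psmb10.

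**Figure D3:**
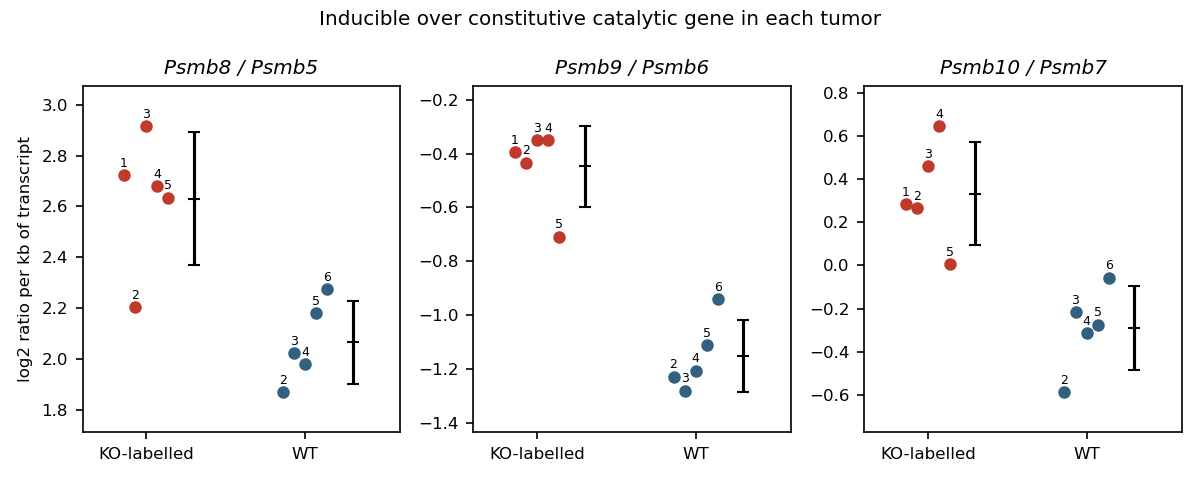
Log2 ratio per kb of transcript (y axis) of each inducible catalytic gene to its constitutive counterpart in KO-labelled tumors (left of each panel) and WT tumors (right), 5 each; points are tumors with their column number, and the bar is the mean ± SD. The groups are separate for Psmb9 over Psmb6 and Psmb10 over Psmb7, and KO2 falls among the WT tumors for Psmb8 over Psmb5.

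Among the other subunits of the 20S core, the alpha ring was higher as a whole. All 7 measured Psma genes passed as higher, against 17.5% of all measured genes, with a median of 1.32-fold. In 5 of the 7 the groups did not overlap, against 24.8% of all measured genes in either direction. Psma5 changed the most of the 7, with 1917, 3228, 2629, 3077 and 1806 normalized counts in KO-labelled tumors against 1624, 1557, 1536, 1768 and 1563 in WT tumors. KO5 was just above the highest WT tumor (log2 difference 0.61 ± 0.15, adjusted p = 0.00658). Psma1 had 2784, 3842, 3434, 4115 and 2856 in KO-labelled tumors against 2300, 2166, 2254, 2445 and 2301 in WT tumors, also with no overlap (0.55 ± 0.11, adjusted p = 0.0015). Psma3 had 1442, 2845, 1781, 2057 and 1419 in KO-labelled tumors against 1316, 1343, 1254, 1348 and 1220 in WT tumors. Its KO-labelled values were all above those of WT tumors but were spread widely, with KO2 far above the rest (0.51 ± 0.16, adjusted p = 0.0236). Leaving out KO4, WT4 or WT6 brought the adjusted p of Psma3 to 0.0504 to 0.0531. The remaining alpha genes had log2 differences of 0.30 to 0.40. Of the structural beta subunits, Psmb3 (0.30) and Psmb4 (0.41) passed, whereas Psmb2 (0.25, adjusted p = 0.0892) and Psmb1 (0.10, adjusted p = 0.464) did not.

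In the 19S cap, 12 of 17 subunit genes (70.6%) passed as higher, against 17.5% of all measured genes, and the median was 1.22-fold. The non-ATPase genes passed in 9 of 11 cases and the ATPase genes in 3 of 6. Among the non-ATPase genes the differences of those that passed were 0.19 to 0.42 on the log2 scale. They include Psmd4, a ubiquitin receptor (0.35), Psmd14, which removes ubiquitin chains from the substrate (0.31), and Psmd2, a scaffold of the base (0.24). Psmd11, a lid subunit that braces the cap against the core, had 1827, 1681, 1845, 1684 and 1923 normalized counts in KO-labelled tumors, against 1512, 1312, 1326, 1382 and 1458 in WT tumors. Here the KO-labelled tumors were close to each other, and KO5 and not KO2, KO3 or KO4 was the highest. Among the ATPases, Psmc4 (0.37), Psmc6 (0.32) and Psmc2 (0.22) passed, and Psmc1, Psmc3 and Psmc5 had log2 differences of 0.13 to 0.21 that did not.

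Of the assembly factors, Pomp was the most changed. Its product escorts beta subunits into the maturing core and is destroyed as the first substrate of the new protease. Pomp had 2821, 4820, 3834, 4056 and 2429 normalized counts in KO-labelled tumors, against 2320, 2322, 2202, 2485 and 2329 in WT tumors. The groups overlapped through KO5, which lay below WT5, and KO2 was the highest (log2 difference 0.58 ± 0.15, adjusted p = 0.0106). Psmg3, a chaperone of alpha ring assembly, passed as well (0.48, adjusted p = 0.0296). Its fellow chaperones Psmg1 (0.43, adjusted p = 0.0559), Psmg2 (0.07) and Psmg4 (0.19) did not, and none of the 3 chaperones of the 19S base did (Psmd5 0.16, Psmd9 0.25, Psmd10 0.27).

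The activators outside the interferon-inducible pair did not share a direction. Psme3 forms a nuclear cap of its own. It had 2523, 2330, 2372, 2407 and 2644 normalized counts in KO-labelled tumors, against 2037, 1898, 2124, 2076 and 2109 in WT tumors, with no overlap and KO5 highest (log2 difference 0.26 ± 0.06, adjusted p = 0.00697). Psme4 encodes PA200, a large single-chain cap. It had 3593, 2715, 2555, 2528 and 3589 in KO-labelled tumors, against 3409, 3797, 4072, 3323 and 3344 in WT tumors. KO2, KO3 and KO4 were below all WT tumors whereas KO1 and KO5 fell among them, and the difference did not pass (-0.27 ± 0.12, adjusted p = 0.0805). It was the only gene of the 49 with a negative log2 difference, and limma counted 1 gene of the other 44 as lower at an unadjusted p under 0.05. Under total-count scaling Psme4 passed as lower (-0.33, adjusted p = 0.0492), as it did without KO1 (-0.34) and without KO5 (-0.34). Psmf1, an inhibitor of the core, had a log2 difference of 0.03 that did not pass.

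The KO-labelled tumors differed among themselves, and they did so together across the proteasome genes. Set against the WT mean, the median log2 value of the 5 inducible genes was 0.61, 1.14, 1.22, 1.31 and 0.36 in KO1 to KO5. That of the other 44 genes was 0.12, 0.38, 0.38, 0.44 and 0.12. KO1 and KO5 were below KO2, KO3 and KO4 in all 5 inducible genes and in 32 of the other 44 (72.7%), against 23.4% of all measured genes. This order was noticed in the values and was not tested. The number of the other 44 genes above every WT tumor was 25, 38, 40, 43 and 29 in KO1 to KO5. The same count was not made over all measured genes, so it is not read as particular to the proteasome genes. The median SD between tumors on the log2 scale was 0.365 in KO-labelled tumors and 0.162 in WT tumors for the inducible genes. For the other proteasome genes it was 0.229 in KO-labelled tumors and 0.0732 in WT tumors, and for all measured genes 0.225 and 0.115.

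**Figure D4:**
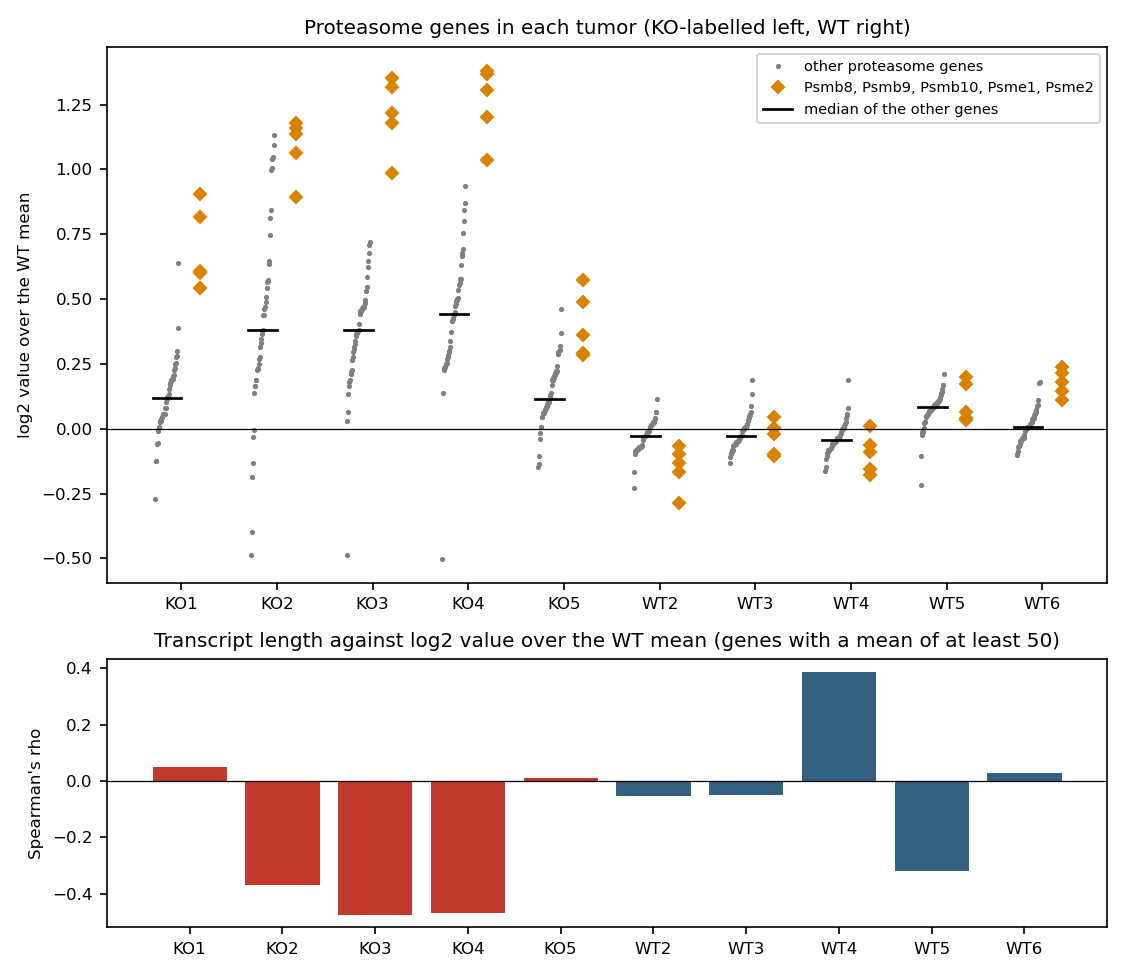
Upper panel, log2 normalized count of each proteasome gene over the mean of the WT tumors (y axis) in every tumor, with the 5 inducible genes as diamonds, the other 44 as dots and their median as a line; lower panel, Spearman's rho between transcript length and the same log2 value across 11186 genes in every tumor. KO2, KO3 and KO4 have the highest medians of the other genes (0.38, 0.38 and 0.44) and a negative rho, while KO1 and KO5 have medians of 0.12 and a rho near 0. Among WT tumors rho is -0.32 in WT5 and 0.39 in WT4.

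The relation of the values to transcript length also differed between tumors, in both groups. Across 11186 genes with a mean of at least 50, Spearman's rho between transcript length and the log2 value over the WT mean was 0.05, -0.37, -0.48, -0.47 and 0.01 in KO1 to KO5. In WT tumors rho was between -0.32 (WT5) and 0.39 (WT4). Short transcripts thus read higher in KO2, KO3 and KO4, and also in WT5, and lower in WT4. Across the 44 other genes the log2 difference and length had a rho of -0.33 (-0.35 across the 11186 genes, given as a description since the genes share libraries). After the trend with length was taken out of each library, an alternative added after seeing the data, the 5 inducible genes still passed as higher with a median log2 difference of 0.78. Of the other genes 26 passed as higher, 25 of them also called before, and the median of the 44 was 0.20 in place of 0.30. Over the 12459 genes of that fit, 19.5% passed as higher and 18.3% as lower, against 17.5% and 18.2% as reported. Psma4, Psmb3 and Psmc2 lost their calls and Psmd5 gained one. The constitutive catalytic genes kept their calls at smaller differences, 0.34 for Psmb5, 0.15 for Psmb6 (adjusted p = 0.0312) and 0.15 for Psmb7 (adjusted p = 0.0411). Psme4, the longest of these transcripts, was at -0.09.

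The 28 calls among the other genes also depended on which tumor was left out. Without WT3, WT4 or column KO4, 18 of the 44 passed as higher, whereas 33 did without KO1 and 34 without KO5. The share of all measured genes called higher moved in the same direction from 17.5% as reported. It was 14%, 13.9% and 15.6% without WT3, WT4 and KO4, and 19% and 19.6% without KO1 and KO5. Total-count scaling left 21 higher and 1 lower, beside 1794 genes higher and 2853 lower over all genes (2259 and 2347 as reported).

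Genes that work beside the proteasome were read from lists drawn up with earlier results of these data known. Over all measured genes, 17.5% passed as higher and 18.2% as lower. Of 14 genes for MHC class I molecules and peptide loading, 11 (78.6%) were higher and 0 lower, with a median log2 difference of 0.67. Of 15 interferon gamma signalling genes, 10 (66.7%) were higher and 0 lower, with a median of 0.48. Ifng, the cytokine itself, had 169, 165, 387, 343 and 113 normalized counts in KO-labelled tumors, against 30, 34, 74, 54 and 50 in WT tumors. Every KO-labelled tumor was above every WT tumor, with KO3 and KO4 highest and KO2 close to KO1 (log2 difference 2.18 ± 0.34, adjusted p = 0.000373). Irf1 (0.97, adjusted p = 0.00129), a transcription factor of that response, and Nlrc5 (0.61, adjusted p = 0.00263), the class I transactivator, were higher as well. The response was not uniform, since 5 of the 15 signalling genes did not pass. Of the 15, 11 had a log2 difference above 0, and the lowest was -0.18.

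The genes that set the supply of the standard proteasome did not move as a group. Of 10 known regulators 2 were higher, 1 was lower and 7 did not pass, a share close to the 35.6% of all genes. Nfe2l1, which encodes NRF1, the factor that raises all subunit genes when the proteasome is short, had a log2 difference of -0.17 (adjusted p = 0.175). Zfand2a, induced by heat and arsenite, was higher (0.51), as was Akirin2 (0.28), a factor for the import of proteasomes into the nucleus, and Sel1l, part of the ligase that degrades NRF1 in the endoplasmic reticulum membrane, was lower (-0.27). Of 17 genes for proteins that dock on the proteasome or shuttle substrates to it, 4 (23.5%) were higher and 0 lower. Over all measured genes these shares were 17.5% and 18.2%, so the share called higher was near that of all genes. The 4 include Sqstm1 (0.52) and the deubiquitinase gene Uchl5 (0.22).

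Markers of the cell types in the tumors differed between the groups for some types only. The summed leukocyte, T cell and fibroblast markers did not overlap between groups, whereas the macrophage, endothelial and melanocyte sums did. Over all measured genes, 17.5% were called higher and 18.2% lower. Of 10 leukocyte markers 9 were higher, and their summed normalized counts were 37281 to 52679 in KO-labelled tumors and 24815 to 29807 in WT tumors. The T cell markers, of which 5 of 6 were higher, summed to 1325 to 2409 in KO-labelled tumors and 879 to 1233 in WT tumors. The macrophage markers (3 of 6 higher, 1 lower) summed to 20162 to 26308 in KO-labelled tumors and 20033 to 23429 in WT tumors. Of 6 fibroblast markers 5 were lower and 1 higher, with sums of 43215 to 62901 in KO-labelled tumors and 86524 to 99374 in WT tumors. Of 4 endothelial markers 2 were lower and 1 higher, with sums of 2701 to 4058 in KO-labelled tumors and 3681 to 4319 in WT tumors. The melanocyte genes Pmel, Mlana, Tyr, Dct, Tyrp1 and Sox10 were listed at 0 in every tumor and Mitf was at 278 to 409 in KO-labelled tumors and 277 to 406 in WT tumors. The part of these cell types in the proteasome result was not tested, and in whole tumors more cells of a type and more RNA per cell cannot be told apart. The leukocyte sums of KO1 to KO5 were 41549, 37281, 44151, 52679 and 40685, beside medians of the inducible proteasome genes of 0.61, 1.14, 1.22, 1.31 and 0.36. KO4 was highest and KO3 next in both, while KO2 had the lowest leukocyte sum and the third highest median.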

How the data were processed

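Poly(A) RNA from 10 tumors was sequenced as directional, single-end libraries. Per the study's methods and the labels, the authors checked reads with FastQC, aligned them to mm10 with STAR, counted them with featureCounts and normalized them with edgeR. The sources used here do not give tool versions, annotation or strand setting. The table deposited by the authors holds a score per gene and tumor, the normalized read count rounded to a whole number. As these are not raw counts, no count test was run, and depth and counting error are unknown. Columns with the authors' own fold changes and p-values were not used.

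Genes at 0 in all tumors were left out. For the other 12926, limma 3.58.1 (R 4.3.3) was fitted to log2(score + 1) (empirical Bayes, mean-variance trend, Benjamini-Hochberg adjustment over these genes, threshold 0.05, tested on simulated data). Fold changes are on that scale. Ratios were compared with an exact permutation test in scipy 1.17.1, per kb of the principal GENCODE M21 transcript. Coordinates come from that annotation and promoters from RefSeq. Genes named with the value in every tumor are the 5 inducible genes, their counterparts Psmb5, Psmb6 and Psmb7, and the 5 other proteasome genes with the largest differences past the threshold. Psmd11, Psme3 and Psme4 were added after their values were seen. The proteasome genes and all lists were chosen with earlier results of these data known. Alternatives covered each tumor left out, pseudocount, filter, scaling, variance trend, replicate block and length. Some genes that the lists hold are not reported here.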

Additional observations from a re-analysis of the deposited data

Results flagged for a closer look

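In groups of 5 tumors, a value was singled out where it lay apart from the other 4 by more than Dixon's critical ratio of 0.71. This was so in 5 of 104 groups, and chance picks out about 5% of groups. In WT tumors, Psmg1 was at 429 in WT5 (the others were at 347 to 368), Psmb3 at 1307 in WT4 (1452 to 1501), Psmg4 at 308 in WT6 (282 to 289) and Psmc3ip at 183 in WT5 (156 to 160). In KO-labelled tumors, the log2 ratio of Psmb9 to Psmb6 was -0.71 in KO5, where the other 4 tumors were at -0.43 to -0.35.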

How the results depend on the processing

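The 5 inducible genes passed as higher in all 20 alternatives run across genes, as did Psma1, Psma5, Pomp and Psme2b, and none of these or of Psmb5, Psmb6, Psmb7 and Psma3 reversed. With single tumors left out, 18 to 34 of the other proteasome genes passed as higher and 0 to 1 as lower (all genes 1796 to 2529 and 1853 to 2653). The medians then ranged from 0.81 to 1.07 for the inducible and from 0.26 to 0.35 for the other genes. The gene called lower was Psme4 each time (1 gene, without KO1, without KO5 and under total-count scaling). Psme4 was also the gene called lower in both fits of the tumors numbered 2 and 3, given below. Leaving out both columns KO4 and KO5 moved the log2 ratio differences to 0.55 (Psmb8 to Psmb5, adjusted exact permutation p = 0.0714), 0.76 (Psmb9 to Psmb6, 0.0536) and 0.63 (Psmb10 to Psmb7, 0.0536), where 3 tumors against 5 limit the exact p. Over their 13 alternatives the 3 ratio differences lay at 0.49 to 0.67, 0.67 to 0.77 and 0.54 to 0.70. A pairing could be formed for the tumors numbered 2 and 3 only, and the labels do not say that a number marks a shared animal or day. The correlations of the same-numbered tumors' deviations were 0.03 and 0.05. Those of the differently numbered tumors were 0.02 (KO3 with WT2) and 0.11 (KO2 with WT3). With these 4 tumors and a replicate block, 25 other proteasome genes were higher and 1 lower (all genes 1918 and 1984), and without the block 22 were higher and 1 lower (all genes 1406 and 1532, fewer tumors than in the reported fit). The cause of the other changes was not tested. Depth is unknown for these values, so no limit from counting could be given.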
